A study of Saccharomyces cerevisiae with 5 samples.

Results

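Mannitol was compared with glucose as the carbon source of the Saccharomyces cerevisiae strain BY_DEH++, by cap analysis of gene expression (CAGE), which sequences RNAs from their capped 5′ ends and so measures transcripts by their start sites. Each group was 1 library, and neither group had a replicate. The mannitol culture of BY_DEH++ was started at an optical density (OD600) of 0.02 and taken after 1 day at 0.79, and the glucose culture of BY_DEH++ was started at 0.05, grown overnight and taken at 0.95. Both grew in 10 mL at 30 °C in the same medium base with 1% (w/v) of the carbon source, after preculture on solid YPGA. The labels give the strain by name alone, so what BY_DEH++ carries beyond a BY background, and its mating type, were not given in the sources used here. Medium, culture time and density differed together and cannot be told apart.

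The members were the genes of the deposited table of start site clusters that reached 10 CPM (reads scaled to the library's total) in at least 1 of the 2 libraries, a gene's value being the sum of the clusters assigned to it. There were 4483 such genes of 4799 with any cluster, and 4568 reached 10 CPM in at least 1 of all 5 libraries of the series. The other 3 libraries, shown beside the pair for reference, were BY_DEH++ in DEH (the uronic acid monomer of alginate; OD600 from 0.05 to 0.55 in 2 days), BY_DEH+ in glucose (0.05 to 0.91 overnight) and BY_DEH+ in DEH (0.2 to 0.63 in 3 days). Depth was 10.5 M reads in mannitol and 13.3 M in glucose, and 9.43 to 19.9 M over the 5 libraries. The mannitol sample's title does not end in 3 bases of a barcode as the other 4 titles do; whether it was prepared or sequenced apart was not given in the sources used here.

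Mannitol is a sugar alcohol that yeast takes up through transporters of the hexose transporter family and oxidises to fructose with a mannitol dehydrogenase, after which fructose enters glycolysis. Laboratory strains usually grow poorly on it. Glucose, in contrast, holds down respiration and the use of other carbon sources through the Mig1 repressor and, through the sensors Snf3 and Rgt2, turns on the hexose transporter genes.

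A gene was called at 4-fold, a log2 ratio of CPM + 1 of 2 or more in size, as a description with no test. In mannitol 178 of the 4483 genes were higher (3.97%) and 290 were lower (6.47%), with a median log2 ratio of -0.48. At 2-fold 427 were higher (9.52%) and 1253 lower (28%). The genes with the highest ratios were mostly for ribosomal proteins, and 10 of the 12 with the lowest were for hexose, iron, zinc and copper handling; the others of the 12 were PHO12 and TAR1. Of the 4483 genes, 4179 reached 10 CPM in both libraries, and these held 170 of the higher and 196 of the lower genes. The 260 genes that reached it in glucose alone could only lie lower in mannitol, and the 44 in mannitol alone only higher. In mannitol 13 lower genes were listed at 0, and in glucose 1 higher gene was. The balance turned with the scaling: median-of-ratios scaling moved the median to -0.03 and gave 255 higher and 156 lower genes, so that 62.0% of calls were higher against 38.03%. Values at the limit were RPS2, higher at 2.01, MTC1, just outside at 1.99, ATG15, lower at -2.0004, and YPS3, just outside at -1.998.

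**Figure D1:**
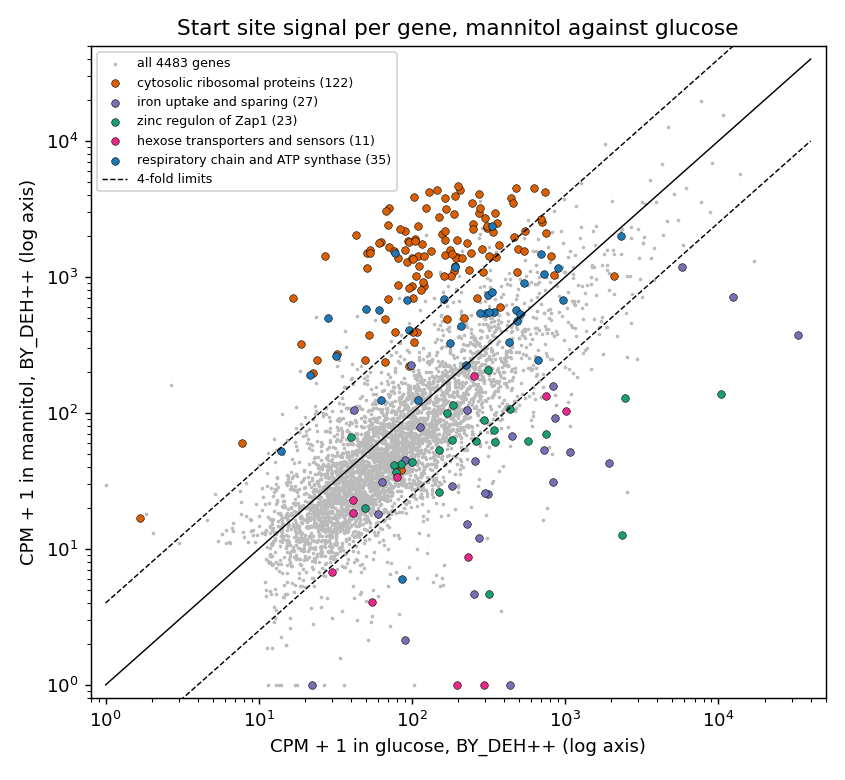
CPM + 1 of each of 4483 genes in BY_DEH++ in glucose (x axis, log) and in mannitol (y axis, log), with 5 gene lists in colour; the solid line marks equal values and the dashed lines 4-fold. Ribosomal protein genes lie mostly above the upper line, and iron, zinc and hexose transporter genes mostly below the diagonal.

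The glucose library of BY_DEH+ gave a second, separately grown glucose culture of a related strain. The 2 glucose libraries differed at 4-fold in 6 genes higher and 10 lower of 4492, with a median of -0.04 for BY_DEH++ over BY_DEH+. Against BY_DEH+ in glucose, mannitol had 154 genes higher and 302 lower of 4514. Of the 178 higher genes 146 also passed 4-fold against BY_DEH+ in glucose, as did 224 of the 290 lower genes. Mannitol was the highest of the 5 libraries in 155 of the 178 higher genes, where it was so in 16.8% of all 4483, and the lowest in 256 of the 290 lower genes, where it was so in 50.4% of all.

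The genes for mannitol use were not higher in mannitol. The list held 10 genes for transport and oxidation of mannitol and sorbitol, of which 4 were measured, none passed 4-fold in either direction, and the median was -0.94. DSF1, a mannitol dehydrogenase (chromosome V, 19589 to 21097, plus strand), stood at 100.4 CPM in mannitol, 113 CPM in glucose and 191 CPM in BY_DEH+ in glucose, and in DEH at 29.0 CPM in BY_DEH++ and 37.9 CPM in BY_DEH+. Its mannitol value lay below both glucose libraries and above both DEH libraries; the log2 ratio of -0.17 turned to 0.29 with median-of-ratios scaling. HXT17, a transporter of the hexose family that carries mannitol (chromosome XIV, 772657 to 774351, plus strand), stood at 62.8 CPM in mannitol, 118 and 111 CPM in glucose and 24.2 and 24.4 CPM in DEH. HXT13, a transporter of the same group, was at 29.6 CPM with mannitol and 85.7 CPM with glucose, but its clusters lay 2734 and 3481 bases before its coding sequence, so that these values may not be those of HXT13 itself. GRE3, an aldose reductase, stood at 80.7 CPM against 158.5 CPM. HXT15, HXT16, SOR1, SOR2 and YNR073C, near-identical copies of the measured transporters and dehydrogenases or sorbitol dehydrogenases, had no cluster assigned, and XYL2 was listed at 0 in both libraries. Reads from such copies cannot be told apart where they match more than 1 place, and how the authors treated them was not given in the sources used here.

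HXT17 also differed in where its RNAs started, which was noticed after its values were seen. The cluster at the start of its coding sequence held 13.2 CPM in mannitol and 93.9 CPM in glucose, and a second cluster about 596 bases inside the coding sequence held 41.5 and 14.9 CPM. The cluster at the gene's start thus took 24.1% of the CPM of both clusters together in mannitol and 86.3% in glucose, against 75.5% in BY_DEH+ in glucose.

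Hexose transporter genes were lower in mannitol. Of 11 measured transporters and sensors, 7 were lower at 4-fold (63.6%, against 6.47% of all genes), none was higher, and the median was -2.51. Only 6 of the 11 reached 10 CPM in both libraries. HXT3, HXT4, HXT6, HXT8 and HXT10, all called lower, passed the filter through glucose alone, so it fixed their direction. HXT4, a transporter made when glucose is low (chromosome VIII, 287081 to 288811, minus strand), was listed at 0 in mannitol against 296 CPM in glucose and 205 CPM in BY_DEH+ in glucose, with 0.5 and 1.4 CPM in DEH. HXT3, a low-affinity transporter (chromosome IV, 1162957 to 1164660, minus strand), was listed at 0 in mannitol and in both DEH libraries against 195 and 145 CPM in glucose. In both genes every glucose value lay above every value of the other media. HXT2, a high-affinity transporter, followed another order, with 102 CPM in mannitol, 1011 and 546 CPM in glucose and 1043 and 1513 CPM in DEH. For HXT2 mannitol was therefore the only low library, 9.87-fold under glucose (95% counting interval 9.28 to 10.5).

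HXT6 and HXT7, high-affinity transporters with near-identical sequences whose reads may be split between them, stood at 7.74 against 232 CPM and 131 against 751 CPM. The glucose libraries differed for both: BY_DEH+ held 22.4 CPM of HXT6 and 286.5 CPM of HXT7. HXT8 stood at 3.06 against 53.6 CPM, but the window at its coding start held no cluster, so that its call rests on clusters outside it. HXT10 stood at 5.74 against 29.1 CPM, and its log2 ratio of -2.16 became -1.76, within 4-fold, with median-of-ratios scaling. HXT5, the transporter of slowly growing cells, stood at 32.7 against 79.1 CPM as deposited, within 4-fold. In the window at its coding start HXT5 held 2.68 against 46.9 CPM, a log2 ratio of -3.70 and past 4-fold. Most of its mannitol value came from a cluster upstream of that window, with 30.0 against 29.7 CPM. The sensors SNF3 and RGT2 stood at 22.0 against 40.4 CPM and 17.3 against 40.3 CPM, both within 4-fold. HXT9, at 185 against 253 CPM, took 96.5% of its mannitol value from a cluster shared with REE1. HXT1 did not reach 10 CPM in either library. Under the smaller of the folds against both glucose libraries, 4 of the 11 were lower in place of 7.

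Of 15 genes for hexose phosphorylation and glucose repression 4 were lower (26.7%, against 6.47% of all genes) and none higher, and 11 lay within 4-fold; the median of -0.42 was close to that of all genes, -0.48. The 4 were repressors or a corepressor. MIG3 and MIG2, repressors related to Mig1, were listed at 0 against 25.5 CPM and stood at 2.3 against 80.7 CPM. MTH1, a corepressor of the hexose transporter genes, stood at 19.2 CPM in mannitol, 243 and 167 CPM in glucose and 40.0 and 86.9 CPM in DEH. MIG1 itself stood at 44.6 CPM against 203 CPM.

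The windows of 300 bases around the main start site of each gene were searched for the Mig1 letters CCCCGC and CCCCAC, the Zap1 letters ACCTT and AAGGT with any 1 base between and the Aft1 letters GCACCC, on both strands. The Mig1 letters were in 5 of the 11 transporter and sensor windows (45.5%) and in 357 of all 4483 windows (7.96%). The 5 were those of HXT2, HXT4, HXT7 and HXT10, called lower, and of HXT5, within 4-fold as deposited. HXT3, HXT6 and HXT8, also called lower, held none. The Aft1 letters were in 15 of 27 windows of iron genes (55.6%) and 196 of all (4.37%), and the Zap1 letters in 3 of 23 windows of zinc genes (13.04%) and 4 of all (0.0892%); of these 3, ZRT1 was called lower, and ZRG17 and MCD4 lay within 4-fold. The Rap1 letters ACCCA followed by TACA were in 4 of 122 windows of ribosomal protein genes (3.28%) and 28 of all (0.625%). Other motifs of these factors with other letters were not searched. The 5 windows below were chosen after their values were seen. HXT4, ZRT1 and FIT1 are shown as a transporter, a zinc and an iron gene among the 12 lowest, HXT3 as a transporter of the 12 without the Mig1 letters, and ZRG17, which was not called lower, because it holds the same 11 letters as ZRT1; capitals mark the searched letters on either strand. They run 5′ to 3′ along the gene's strand, from 249 bases before to 50 bases after the middle of the main cluster, and come from the RefSeq sequence of R64: HXT4 at chrVIII:288935-289234 on the minus strand, HXT3 at chrIV:1164641-1164940 on the minus strand, ZRT1 at chrVII:20719-21018 on the plus strand, ZRG17 at chrXIV:699377-699676 on the minus strand and FIT1 at chrIV:1504900-1505199 on the minus strand.
HXT4: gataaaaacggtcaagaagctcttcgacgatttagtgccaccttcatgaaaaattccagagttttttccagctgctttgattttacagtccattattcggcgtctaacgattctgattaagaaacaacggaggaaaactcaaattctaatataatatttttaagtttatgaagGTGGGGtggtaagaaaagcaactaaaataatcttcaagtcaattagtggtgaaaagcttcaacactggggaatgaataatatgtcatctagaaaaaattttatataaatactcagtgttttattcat
HXT3: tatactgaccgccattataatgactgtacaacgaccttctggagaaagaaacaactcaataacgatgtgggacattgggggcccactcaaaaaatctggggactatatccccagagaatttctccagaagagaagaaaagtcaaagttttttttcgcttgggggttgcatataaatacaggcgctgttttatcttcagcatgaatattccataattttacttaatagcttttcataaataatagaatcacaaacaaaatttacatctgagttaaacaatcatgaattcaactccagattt
ZRT1: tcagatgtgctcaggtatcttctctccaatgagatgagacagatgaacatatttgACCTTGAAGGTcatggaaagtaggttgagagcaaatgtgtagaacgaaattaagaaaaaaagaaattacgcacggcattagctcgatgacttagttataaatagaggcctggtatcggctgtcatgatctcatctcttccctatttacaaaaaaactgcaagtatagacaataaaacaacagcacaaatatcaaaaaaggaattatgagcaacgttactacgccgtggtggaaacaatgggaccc
ZRG17: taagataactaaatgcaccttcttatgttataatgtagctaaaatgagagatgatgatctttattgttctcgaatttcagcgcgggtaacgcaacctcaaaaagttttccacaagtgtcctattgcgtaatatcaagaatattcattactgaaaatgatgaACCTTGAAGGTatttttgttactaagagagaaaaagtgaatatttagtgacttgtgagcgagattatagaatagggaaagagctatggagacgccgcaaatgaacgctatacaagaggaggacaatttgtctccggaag
FIT1: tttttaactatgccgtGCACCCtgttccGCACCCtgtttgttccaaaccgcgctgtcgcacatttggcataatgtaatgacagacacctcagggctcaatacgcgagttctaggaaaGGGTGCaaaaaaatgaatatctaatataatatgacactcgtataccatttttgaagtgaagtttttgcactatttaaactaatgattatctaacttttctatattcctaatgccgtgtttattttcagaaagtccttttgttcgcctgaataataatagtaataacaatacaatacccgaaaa
FIT1 held 3 matches to the Aft1 letters, HXT4, ZRT1 and ZRG17 held 1 match each to the letters of their group, and HXT3 held none. A match is a description of the sequence and not a bound site.

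Zinc genes formed the next group. In yeast the activator Zap1 turns on uptake transporters and zinc-sparing genes when zinc is short. Of 23 measured genes of this regulon 11 were lower in mannitol at 4-fold (47.8%, against 6.47% of all), none was higher, and 18 were lower at 2-fold; the median was -1.74. ZRT1, the high-affinity zinc transporter, stood at 136 CPM in mannitol, 10393 and 4952 CPM in glucose and 4734 and 3572 CPM in DEH. Mannitol was the lowest library, 76.2-fold under glucose (72.3 to 80.3), and the other 4 libraries lay within 3-fold of each other. ZRG17, a zinc transporter of the endoplasmic reticulum whose window holds the same Zap1 letters, stood at 52.0 CPM in mannitol and 148, 141, 98.2 and 125 CPM elsewhere.

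ZPS1, a cell surface protein of the regulon (chromosome XV, 34658 to 35407, plus strand), stood at 11.8 CPM in mannitol and 2345 CPM in glucose, but at 252 CPM in BY_DEH+ in glucose, so the glucose libraries differed too. ZRT3, which releases zinc from the vacuole, stood at 128 CPM in mannitol, 2441 and 1458 CPM in glucose and 508 and 394 CPM in DEH. ZAP1 itself stood at 61.2 CPM against 572 CPM, ZRT2, a low-affinity zinc transporter, at 69.3 against 748 CPM, and COT1, a vacuolar zinc transporter, at 60.0 against 346 CPM. VEL1 stood at 3.63 against 319 CPM, with 21.5 CPM in BY_DEH+ in glucose.

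The other members called lower were NRG2, a repressor, at 25.1 against 149 CPM, IZH1 at 74.5 against 343 CPM, MUP1, a methionine permease, at 60.7 against 261 CPM, and URA10 at 106 against 434 CPM. Within 4-fold lay GPP2 at 87.1 against 293 CPM, ADH4 at 62.2 against 182 CPM, IZH4 at 18.8 against 48.4 CPM, IZH2 at 42.7 against 98.4 CPM, MSC2 at 36.0 against 77.7 CPM, MCD4 at 41.0 against 83.2 CPM, MNT2 at 40.4 against 74.9 CPM, PST1 at 98.5 against 169 CPM, DPP1 at 113 against 184 CPM and ZRC1 at 207 against 311 CPM. These 10 and ZRG17 all lay below their glucose value. RAD27, a nuclease of DNA replication, was the only member above, at 65.0 CPM against 39.0 CPM. With the smaller of the folds against both glucose libraries 7 of 23 were lower.

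ADH4, an alcohol dehydrogenase of the zinc regulon, is described here after its values were seen. Its cluster near the coding sequence held 7.17 CPM in mannitol and 132 CPM in glucose, and the cluster about 601.5 bases upstream 55.1 and 49.3 CPM. The near cluster took 72.9% of the CPM of both clusters together in BY_DEH++ in glucose and 11.5% in mannitol, but it also took 20.4% in BY_DEH+ in glucose.

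Iron genes were lower in mannitol. The activators Aft1 and Aft2 turn on this regulon, of siderophore transporters, reductases and the iron oxidase and permease, when iron is short. Of 27 measured genes 20 were lower at 4-fold (74.1%, against 6.47% of all), none was higher, and the median was -3.55. FIT1, a cell wall mannoprotein of siderophore uptake (chromosome IV, 1503314 to 1504900, minus strand), was listed at 0 in mannitol against 438 and 279 CPM in glucose, with 0.91 and 0.84 CPM in DEH. FIT3, of the same family, stood at 374 CPM in mannitol, 32839.7 and 26028 CPM in glucose and 10109 and 2502 CPM in DEH. It was the most abundant gene of the list in glucose, 87.7-fold above mannitol (85.0 to 90.5). FIT2 was at 708 CPM with mannitol and 12455 CPM with glucose, with 206 CPM in BY_DEH+ in DEH below both.

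Siderophore transporters had some of the lowest ratios. ARN2 (chromosome VIII, 8351 to 10213, minus strand) stood at 41.8 CPM in mannitol, 1936 and 1105 CPM in glucose and 852 and 199 CPM in DEH. ARN1 stood at 30.3 against 836 CPM and ENB1 at 50.6 against 1069.6 CPM. Of the reductases, which reduce ferric iron and copper at the cell surface, FRE3 stood at 3.63 against 254 CPM, FRE2 at 1.15 against 89.0 CPM, FRE1 at 14.2 against 229 CPM and FRE5 at 24.3 against 314 CPM, while FRE4 lay at 77.3 against 111 CPM. FET3 and FTR1, the oxidase and permease of high-affinity uptake, stood at 1173 against 5749 CPM and 157 against 837 CPM. The log2 ratio of FET3, -2.29, was smaller in size than that of ARN2, -5.50. FET4, a low-affinity iron transporter, stood at 11.0 against 274 CPM, FTH1 and FET5, of the vacuole, at 66.6 against 448 CPM and 43.5 against 258 CPM, and CCC2, which loads copper into Fet3, at 28.01 against 182 CPM.

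TIS11, which marks messengers of iron-using proteins for decay, stood at 90.4 against 856 CPM, HMX1, a heme oxygenase, at 24.7 against 299.8 CPM, and LSO1, a small protein of iron shortage, was listed at 0 against 21.4 CPM. The activators lay within 4-fold, AFT1 at 44.3 against 89.0 CPM and AFT2 at 17.0 against 59.0 CPM, as did SMF3, a vacuolar metal transporter, at 103 against 229 CPM and CTH1, related to TIS11, at 30.3 against 62.3 CPM. The 2 members above glucose were CCC1, which carries iron into the vacuole, at 105 CPM against 41.1 CPM, and ATX1, a copper chaperone, at 225 CPM against 97.0 CPM. SIT1 and FRE6 did not reach 10 CPM as deposited, though the clusters within 500 bases before and 100 bases after the start of their coding sequences held 252 against 1290.2 CPM and 65.9 against 181 CPM. VHT1, the biotin transporter, was counted in this list and in the vitamin list below.

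Copper genes were lower in 3 of 7 measured members (42.9%, against 6.47% of all genes), with none higher and a median of -1.44. CUP1-1, a metallothionein (chromosome VIII, 212535 to 212720, minus strand), stood at 25.3 CPM in mannitol, 2539 and 1332 CPM in glucose and 1435 and 602 CPM in DEH. CUP1-1 and CUP1-2 are near-identical and present in copies that differ in number between strains, so the value is of the family. CUP2, the activator of CUP1, stood at 22.5 against 105 CPM and CTR1, the copper transporter, at 6.5 against 33.9 CPM. With median-of-ratios scaling CUP2 and CTR1 lay within 4-fold, at -1.74 and -1.81, as they did with the other scalings and with a pseudocount of 10 CPM, which leaves CUP1-1 alone of the 3. The last of the 12 lowest genes were PHO12, an acid phosphatase nearly identical to PHO11, at 2.49 against 380.4 CPM with 1028 CPM in BY_DEH++ in DEH, and TAR1, which lies within the ribosomal DNA, listed at 0 against 103 CPM.

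**Figure D2:**
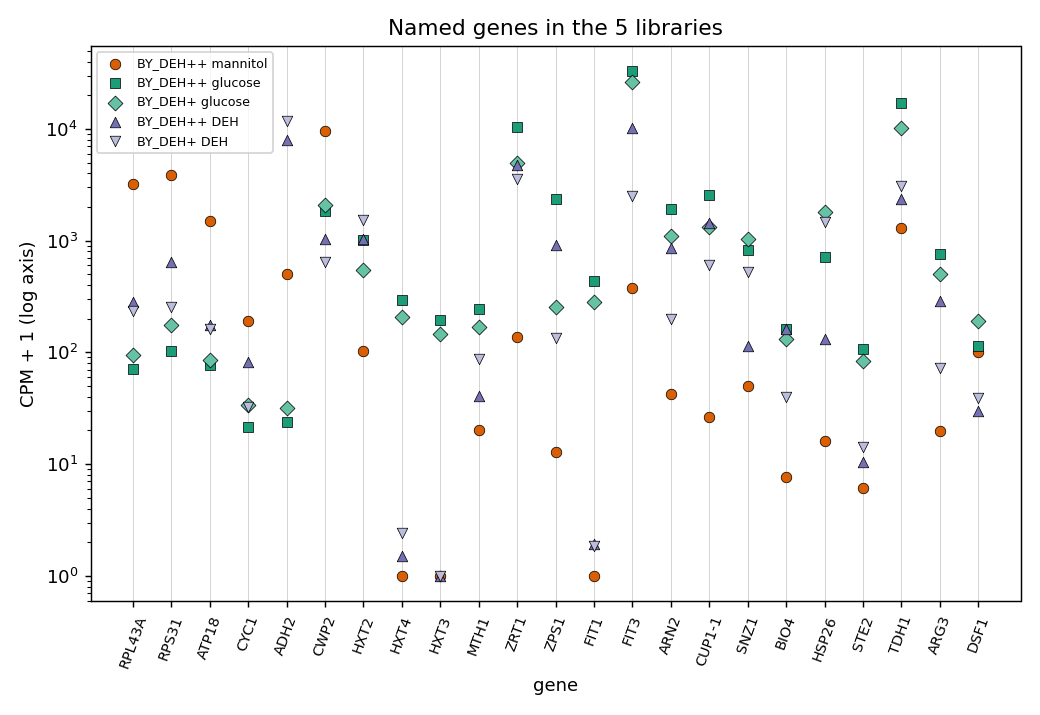
CPM + 1 (y axis, log) of 23 of the genes named in the text, in each of the 5 libraries, 1 point per library. Mannitol (circles) lies below both glucose libraries (square and diamond) for the metal, vitamin, hexose transporter and mating genes and above them for the genes on the left.

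Genes for biotin and vitamin B6, a list added after the values were seen, were lower in 7 of 11 measured members (63.6%, against 6.47% of all genes) with a median of -3.76. Of the 11, 5 reached 10 CPM in both libraries. Members under 10 CPM in mannitol, such as SNO1, BIO3 and BIO4, could only lie below glucose. SNZ1 and SNO1, which make vitamin B6, stood at 48.7 against 819 CPM and 4.4 against 159 CPM, and in BY_DEH++ in DEH at 113 and 15.5 CPM. BIO3 and BIO4, of biotin synthesis, stood at 8.41 against 124 CPM and 6.6 against 162 CPM, and in DEH they lay near glucose, at 111 and 161 CPM. The mannitol value of BIO4 came from clusters shared with BIO5. The window of BIO4 held 1.05 against 60.5 CPM and that of BIO5 5.55 against 101 CPM. SNZ3 and SNO3 are nearly identical to SNZ2 and SNO2. Thiamine genes were lower in 5 of 12 (41.7%, median -1.52), led by THI21, THI72 and THI4, but THI21 and THI72 took their values from clusters outside the window at their coding start, and THI4 stood at 0.96 against 14.1 CPM.

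Cytosolic ribosomal protein genes were the largest group above glucose. They took 24.0% of all gene CPM in mannitol and 2.93% in glucose, against 3.68% in BY_DEH+ in glucose and 13.3% and 8.10% in DEH. Of 122 measured genes 101 were higher at 4-fold (82.8%, against 3.97% of all), none was lower, and the median was 3.15. RPS22B, of the small subunit (chromosome XII, 856442 to 857317, plus strand), stood at 1428 CPM in mannitol, 26.1 and 39.1 CPM in glucose and 335 and 301 CPM in DEH. RPL43A, of the large subunit (chromosome XVI, 654166 to 654847, plus strand), stood at 3237 CPM, 69.8 and 93.2 CPM and 279 and 233 CPM in the same order. For both genes mannitol was above DEH, and DEH above glucose.

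RPS31, which is made as a fusion with ubiquitin, was at 3844 CPM with mannitol and 102 CPM with glucose, a ratio of 37.6 (35.6 to 39.7). RPL9A, RPS27B, RPL37B, RPL33B, RPL42B, RPS29B, RPS22A and RPS28A completed the 12 highest genes with ASP3-3, with 701 to 4382 CPM in mannitol, where glucose gave 15.7 to 144 CPM. Many of these genes have a near-identical second copy, and reads may be split between copies. ASP3-3, an asparaginase gene in near-identical copies, stood at 159 CPM against 1.66 CPM, from a cluster shared with YLR157W-B. Its own window held 0 in both libraries. In DEH it stood at 633 CPM in BY_DEH++ but at 4.11 CPM in BY_DEH+, and in BY_DEH+ in glucose at 10.4 CPM.

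Of 66 ribosomal protein genes with 450 coding bases or fewer 61 were higher, and of 56 longer ones 40. RPL4A was at 1021 CPM with mannitol and 2086 CPM with glucose, RPP0 at 1029.6 against 839 CPM and RPL3 at 1078 against 482 CPM, of which RPL4A was lower than glucose and the others higher. RPL24B, at 37.0 against 83.6 CPM as deposited, held 1168 against 143 CPM in the clusters of its own window, and RPL15B, at 2098.5 against 744 CPM as deposited, 51.0 against 107 CPM.

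The ratio went with coding length. Ribosomal protein genes of up to 300 coding bases had a median log2 ratio of 4.78 (16 genes), those of 301 to 450 bases 3.71 (50 genes), of 451 to 600 bases 2.82 (29 genes), of 601 to 900 bases 2.64 (23 genes) and of 901 to 1200 bases 0.49 (4 genes). For DEH over the same glucose library these medians were 1.87, 2.39, 2.70, 2.71 and 1.30, with no such order. Mannitol lay above BY_DEH++ in DEH in 64 of the 66 genes of up to 450 bases and in 28 of the 56 longer ones. Genes outside the ribosomal proteins had medians of 1.21 up to 300 bases (96 genes), 0.13 from 301 to 450 (191 genes), -0.36 from 451 to 600 (269 genes) and -0.66 to -0.42 in the longer classes. In DEH over glucose these classes lay between -0.19 and 0.01. Short genes were thus higher in mannitol in both sets of genes, and the part of coding length in the ribosomal protein ratios was not tested. Without genes under 600 coding bases, 18 ribosomal protein genes and 53 genes in all were higher.

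**Figure D3:**
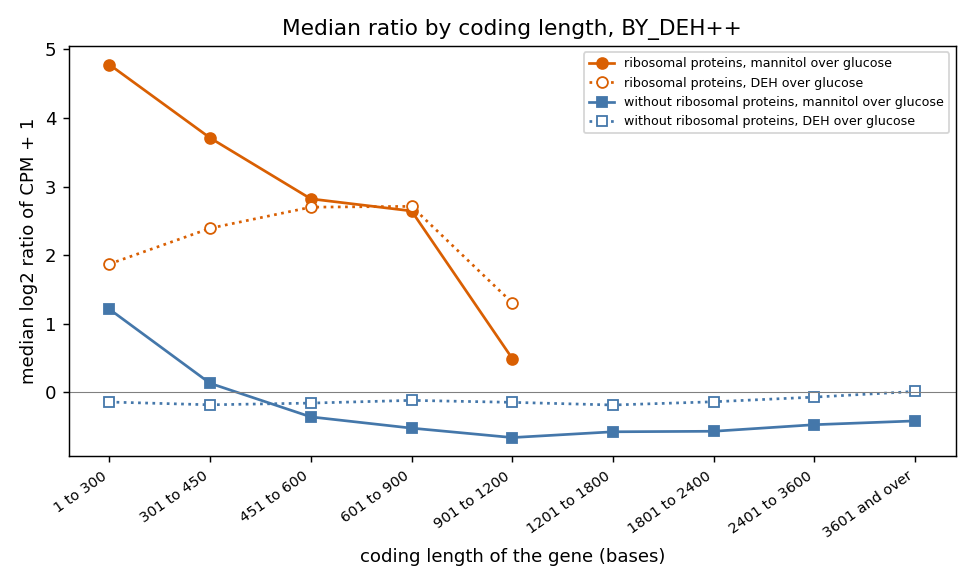
Median log2 ratio of CPM + 1 (y axis) by class of coding length in bases (x axis) for ribosomal protein genes and all other genes, for mannitol over glucose (filled) and DEH over glucose (open), which share the glucose library of BY_DEH++. The mannitol medians go from 4.78 to 0.49 for ribosomal proteins and from 1.21 to -0.66 for other genes, and the DEH medians show no such order.

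Outside the ribosomal proteins 77 genes were higher in mannitol, and 19 of these took most of their value from a cluster that the table also lists for a ribosomal protein gene. Among the 12 highest of the 77, CGR1, EMG1, BMT6, NOP12 and CBK1 were of this kind, sharing clusters with RPL30, RPL37A, RPL22A, RPS15 and RPL42A. Clusters in their own windows held 79.3 against 16.6 CPM for CGR1, 109.9 against 57.5 CPM for EMG1, 11.95 against 9.72 CPM for BMT6, 63.0 against 36.3 CPM for NOP12 and 42.5 against 37.4 CPM for CBK1. GSP1, a Ran GTPase listed at 28.6 CPM against 0, likewise rested on a cluster shared with SEC72, and its own window held 769 against 570.5 CPM. Of the other 58 genes, 25 had 300 coding bases or fewer and 37 had 600 or fewer.

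Respiratory chain and ATP synthase genes were higher in 11 of 35 measured members (31.4%, against 3.97% of all genes) and lower in 1 (2.86%, against 6.47%), with a median of 0.98. ATP18, a small subunit of ATP synthase (chromosome XIII, 103983 to 104162, minus strand), stood at 1505 CPM in mannitol, 76.8 and 84.5 CPM in glucose and 174 and 162 CPM in DEH. ATP19, another small subunit, stood at 500.1 against 27.4 CPM, and COX7, of cytochrome c oxidase, at 578 against 49.2 CPM. CYC1, cytochrome c, stood at 189 against 20.6 CPM. Of the 19 members with 450 coding bases or fewer 10 were higher, with a median of 2.08, and of the 16 longer ones 1, NDI1 at 407 against 93.9 CPM, with a median of 0.14. The part of length was not tested here either. NDE2, an external NADH dehydrogenase, was the member lower, at 4.97 against 84.4 CPM. TOM7, of the mitochondrial import pore, with 183 coding bases, stood at 401.5 CPM in mannitol and at 31.6 to 43.1 CPM in the other 4 libraries.

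Of 16 genes of the tricarboxylic acid cycle 1 was higher (6.25%, near the 3.97% of all genes) and none lower, with a median of 0.59. SDH2, the iron-sulfur subunit of succinate dehydrogenase, stood at 570.1 CPM in mannitol, 111 and 125 CPM in glucose and 426 and 656 CPM in DEH. ACO1, aconitase, stood at 664 against 201 CPM, within 4-fold. Genes for gluconeogenesis, the glyoxylate cycle and C2 compounds were split, 1 higher (5.26%) and 4 lower (21.1%) of 19, where all genes had 3.97% and 6.47%, with a median of -0.49 as deposited and 0.28 with clusters in the window at each gene's coding start. ADH2, which oxidises ethanol (chromosome XIII, 873291 to 874337, minus strand), stood at 507 CPM in mannitol, 22.8 and 30.7 CPM in glucose and 7979 and 11865 CPM in DEH. Mannitol lay between the media, 22.3-fold above glucose (19.8 to 25.1). PCK1 and FBP1, the key enzymes of gluconeogenesis, stood at 264 against 71.9 CPM and 29.4 against 7.24 CPM. Neither gene sum was called, though FBP1 lay at 4.07-fold before 1 CPM was added to each value and at a log2 ratio of 1.89 after. For PCK1 the glucose sum included 32.9 CPM at a cluster inside the coding sequence, listed at 0 in mannitol. The cluster before PCK1 held 257 against 36.4 CPM, more than 4-fold apart. CIT2, the peroxisomal citrate synthase, stood at 79.0 CPM in mannitol and at 1079.7 to 1768 CPM in the other 4 libraries, and YAT1, YAT2 and CRC1, of acetylcarnitine transfer, stood at 12.1, 28.2 and 17.9 CPM against 110.4, 267 and 127 CPM.

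Glycolysis and ethanol formation held 2 lower genes of 17 (11.8%, against 6.47% of all genes), none higher, and a median of -0.50, close to that of all genes. TDH1, the glyceraldehyde phosphate dehydrogenase of slow growth and stress, stood at 1308 CPM in mannitol, 17014 and 10206 CPM in glucose and 2357 and 3069 CPM in DEH, and PDC6, a minor pyruvate decarboxylase, at 1.91 against 53.4 CPM. Of 17 trehalose and glycogen genes the only 2 higher ones were GLG1 and GLG2, whose values rested on clusters shared with RPS21A and RPS21B. In their own windows they stood at 31.1 against 90.3 CPM and 12.2 against 15.7 CPM, below glucose. NQM1 and GND2, the minor copies in the pentose phosphate pathway, stood at 4.68 against 135 CPM and 2.68 against 20.9 CPM.

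Stress genes were lower in 4 of 20 (20%, against 6.47% of all genes) and higher in none, with a median of -1.17. HSP26, a small heat shock protein, stood at 15.2 CPM in mannitol, 716 and 1809.6 CPM in glucose and 130.1 and 1458 CPM in DEH. HSP12, a membrane stress protein, stood at 62.4 CPM against 330.5 CPM and reached 5172 CPM in BY_DEH+ in DEH. Mannitol was the lowest library for both genes. Of 22 autophagy genes 4 were lower (18.2%) and none higher (median -0.98), with ATG41 at 257 against 2542 CPM, from a cluster shared with YAH1, ATG5 at 28.7 against 199.8 CPM and ATG1 at 41.3 against 195 CPM. TRX1, a thioredoxin with 312 coding bases, stood at 1090.0 CPM against 151 CPM, and AHP1, a peroxiredoxin, at 459 against 2673 CPM.

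Amino acid genes under Gcn4 were lower in 6 of 36 (16.7%, against 6.47% of all genes) and higher in none, with a median of -0.93. ARG3, of arginine synthesis (chromosome X, 268799 to 269815, plus strand), stood at 18.9 CPM in mannitol, 759.7 and 503 CPM in glucose and 285 and 71.1 CPM in DEH, the lowest ratio of the list. TRP3 stood at 88.4 against 598 CPM. Sulfur genes were lower in 7 of 24 (29.2%) and higher in none (median -0.96), namely the sulfate permeases SUL1 and SUL2, the permeases MUP1, MUP3 and SAM3 and the regulators MET28 and MET30. SUL2 stood at 11.6 against 126 CPM, MUP3 at 3.82 against 45.6 CPM and SAM3 at 64.6 against 355 CPM. MET3 and MET5, enzymes of sulfate assimilation, lay above glucose within 4-fold, at 408 against 156 CPM and 415 against 146 CPM. SUL1 and SUL2 thus lay below, and MET3 and MET5 above, their glucose values.

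Nitrogen catabolite repression genes were lower in 5 of 23 (21.7%, against 6.47% of all genes) and higher in 1 (4.35%, near the 3.97% of all genes), with a median of -0.85. GDH3, a glutamate dehydrogenase, stood at 31.5 against 271 CPM, UGA3, an activator of GABA use, at 44.9 against 229 CPM and DAL3, from clusters shared with DAL7, at 19.3 against 97.6 CPM. DUR3, a urea permease, was the member higher, at 2641 against 570.3 CPM, from a cluster shared with RPS20; its own window held 6.59 against 23.6 CPM.

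Genes of a cells were lower in 3 of 7 (42.9%, against 6.47% of all genes) and higher in none, with a median of -1.49. At 2-fold 1 was higher. Of the 7, 4 reached 10 CPM in both libraries, and the 3 lower ones passed the filter through glucose alone. STE2, the alpha factor receptor, stood at 5.16 CPM in mannitol, 106 and 82.4 CPM in glucose and 9.45 and 13.1 CPM in DEH. AGA2, from a cluster shared with RPL24A, and STE6 stood at 3.15 against 49.3 CPM and 1.82 against 21.5 CPM. The window at STE6's coding start held 0 against 2.79 CPM, so that the call of STE6 rests on clusters outside it. None of 5 genes of alpha cells passed 4-fold (median 0.36): MF(ALPHA)1, an alpha factor gene, stood at 2378 against 1592 CPM, while SAG1 stood at 55.5 against 209 CPM and STE3 at 91.3 against 231 CPM. Of 17 pheromone response genes 3 were lower (17.6%) and none higher, with AGA1 at 79.7 against 602 CPM, PRM1 at 1.72 against 71.3 CPM and PRM6 listed at 0 against 12.96 CPM. MFA1, an a-factor gene, stood at 54.4 against 77.4 CPM. RNAs of a cells and of alpha cells were thus present in both libraries.

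Cell wall mannoproteins held 3 lower (15%, against 6.47% of all genes) and 1 higher gene of 20 (5%, near the 3.97% of all genes). CWP2, a major wall protein with 279 coding bases, stood at 9557 CPM in mannitol, 1827 and 2093 CPM in glucose and 1029.8 and 642 CPM in DEH, the highest of the 5. FLO5, a flocculin of a repeat-rich family, stood at 248 against 2924 CPM, with no cluster in its own window, and TIR2 at 4.3 against 68.4 CPM. Among 25 cyclin and S phase genes CLB6, an S phase cyclin, was the only one called, at 17.1 CPM in mannitol and at 0 to 0.83 CPM elsewhere, a ratio of 20.6 to BY_DEH++ in glucose (11.3 to 42.1). Of 8 histone genes none passed 4-fold and 5 were 2-fold higher, with HTB1 at 1915 against 668 CPM and HHT2 in the other direction at 1020.2 against 2515 CPM.

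Ribosome biogenesis genes were higher in 3 of 42 (7.14%, against 3.97% of all genes), and only 1 of the 3 rested on clusters of its own; the median was 0.41. DBP3, a helicase of ribosome assembly, stood at 211 against 42.6 CPM; NOP12 rested on a cluster shared with RPS15, and YTM1, at 853 against 171 CPM, on a cluster at the 5′ end of the small nucleolar RNA SNR8. Of 23 translation factors 3 were higher (13.04%). They were TIF4631, the initiation factor eIF4G, at 243 against 32.5 CPM, TIF11 at 697 against 138 CPM and ANB1 at 63.0 against 11.6 CPM. With a pseudocount of 10 CPM the log2 ratio of ANB1 was 1.76, within 4-fold. Of 58 mitochondrial ribosome genes 3 were higher (5.17%) and none lower, with a median of -0.04 (0.04 with windows), and 2 of those 3 had 450 coding bases or fewer. The other, MRP13, rested on a cluster shared with RPL11B, and its own window held 42.9 against 14.2 CPM, within 4-fold. OLE1, the fatty acid desaturase, stood at 545 against 2489 CPM, and ERG3, of ergosterol synthesis, at 380.3 against 1653 CPM.

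**Figure D4:**
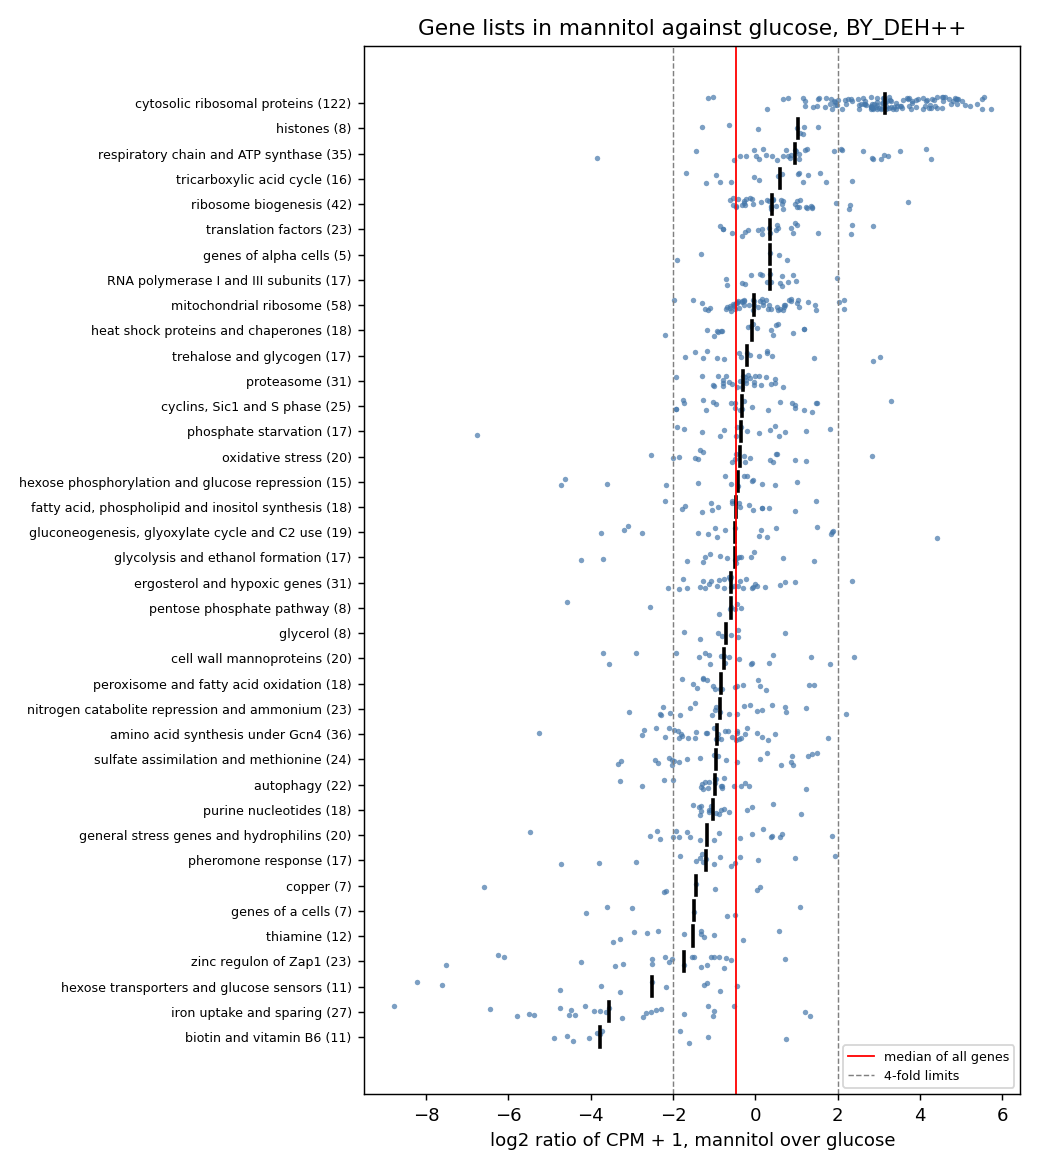
Log2 ratio of CPM + 1, mannitol over glucose in BY_DEH++ (x axis), for every measured gene in lists that had 5 or more of them (1 point per gene, black bars at list medians, number of genes in brackets); the red line is the median of all genes at -0.48 and dashed lines mark 4-fold. Ribosomal proteins stand highest at 3.15 and the biotin and vitamin B6 list lowest at -3.76.

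Mannitol and DEH were compared with the same glucose library, so their ratios share it and are given side by side. Over the 4483 genes, DEH had 135 genes higher (3.01%) and 105 lower (2.34%) than glucose in BY_DEH++. Iron genes had 20 lower in mannitol (median -3.55) and 6 lower in DEH (median -1.18), zinc genes 11 (median -1.74) and 4 (-0.68), and transporter and sensor genes 7 (median -2.51) and 5 (-1.66). Gluconeogenesis genes had 1 higher in mannitol and 12 in DEH, with medians of -0.49 and 3.15, and ribosomal protein genes 101 and 79, with medians of 3.15 and 2.43. Compared directly, mannitol had 99 genes higher and 186 lower than BY_DEH++ in DEH of 4435, with a median of -0.35.

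Start site use within genes also differed. There were 574 genes with at least 2 clusters that reached 10 CPM, and shares were taken of the summed CPM of these clusters. The share in a gene's main glucose cluster moved by 30 points or more in 86 (15%), being lower in mannitol in 63 and higher in 23. The main cluster was the one with the largest share in BY_DEH++ in glucose. That choice favours a lower share in mannitol, so no direction is drawn from the split of 63 and 23. The median move was 10.5 points, against 2.93 points between the glucose libraries, where 6 genes moved by 30 points. Of the 86 genes 72 also moved by 30 points from BY_DEH+ in glucose. Counting only clusters on the gene's strand in its window left 83 genes, of which 15 moved.

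GDH3 had a wide main glucose cluster, from 31517 to 32011, that spanned its coding start at 31567, with the middle 197 bases inside. It held 244 CPM in glucose and 8.22 CPM in mannitol. A second cluster, from 31102 to 31582 and overlapping the first, had its middle 225 bases before the coding sequence and held 17.3 and 23.3 CPM. The spanning cluster took 93.4% of the CPM of both clusters in glucose, 96.0% in BY_DEH+ in glucose and 26.1% in mannitol, and 13.1% and 7.03% in DEH. PCK1 had a cluster that lay wholly inside its coding sequence, at 32.9 CPM in glucose and listed at 0 in mannitol. The cluster before PCK1 held 257 CPM in mannitol and 36.4 CPM in glucose. The spanning cluster of GDH3 and the inner cluster of PCK1 were thus high in glucose in both strains.

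BEM2, a GTPase activator of bud formation, had 231 CPM in mannitol and 12.1 CPM in glucose at a cluster 1514 bases before the coding sequence, and 65.9 and 105 CPM at the near one, which took 22.2% and 89.6%; at that distance the far cluster may not be a start site of BEM2. MFM1, a mitochondrial magnesium transporter, had 15.9 CPM in mannitol and was listed at 0 in glucose at a cluster about 808.5 bases upstream, and held 5.74 and 34.6 CPM at the near one. ATO3, an ammonium transporter, had 32.2 CPM in glucose and 1.72 CPM in mannitol at its upstream cluster, and 41.4 and 113 CPM at the near one. THI21, IMA3 and IES3, the others with the largest moves, involved clusters on the other strand and are not described as start sites of these genes.

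Clusters at the 5′ ends of noncoding RNAs, which for 25 of 44 belong to no gene in the deposited table, were mostly higher in mannitol. Of these 44 RNAs with 10 CPM or more in either library 23 were higher at 4-fold (52.3%, against 3.97% of the 4483 genes). In the other direction 1 was lower (2.27%, against 6.47% of the genes). SNR7-L and SNR7-S share 1 cluster and are counted as 2. Mannitol was the highest of the 5 libraries in 32 of the 44, where it was so in 16.8% of the genes, and in all 23 higher RNAs. SNR17B, a copy of the U3 small nucleolar RNA that guides early cleavage of ribosomal precursor RNA (chromosome XVI, 281056 to 281517, minus strand), stood at 14649.7 CPM in mannitol, 32.5 and 76.8 CPM in glucose and 9.91 and 32.8 CPM in DEH. SNR17A, the nearly identical other copy, whose reads may be split with it, stood at 3692 CPM in mannitol, 876.5 and 1048 CPM in glucose and 1619.9 and 1529 CPM in DEH.

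SNR4, SNR31 and SNR190, other small nucleolar RNAs, stood at 437 against 16.0 CPM, 313 against 18.7 CPM and 111 against 5.05 CPM. SCR1, the RNA of the signal recognition particle, stood at 1295 CPM in mannitol and 148 CPM in glucose, but at 724 and 1069 CPM in DEH. LSR1, the U2 spliceosomal RNA, and SNR30, a guide of cleavage, lay below glucose, at 4312 against 8380.4 CPM and 2239.6 against 4506 CPM, within 4-fold. Noncoding RNAs therefore did not all differ in 1 direction. The cluster of SNR34, at 2476 against 222 CPM, is assigned to RPS29A in the deposited table and gave most of that gene's value, and 13 genes in all rested in this way on an RNA's 5′ end, of which RPS29A, YTM1 and TOS2 were called higher.

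**Figure D5:**
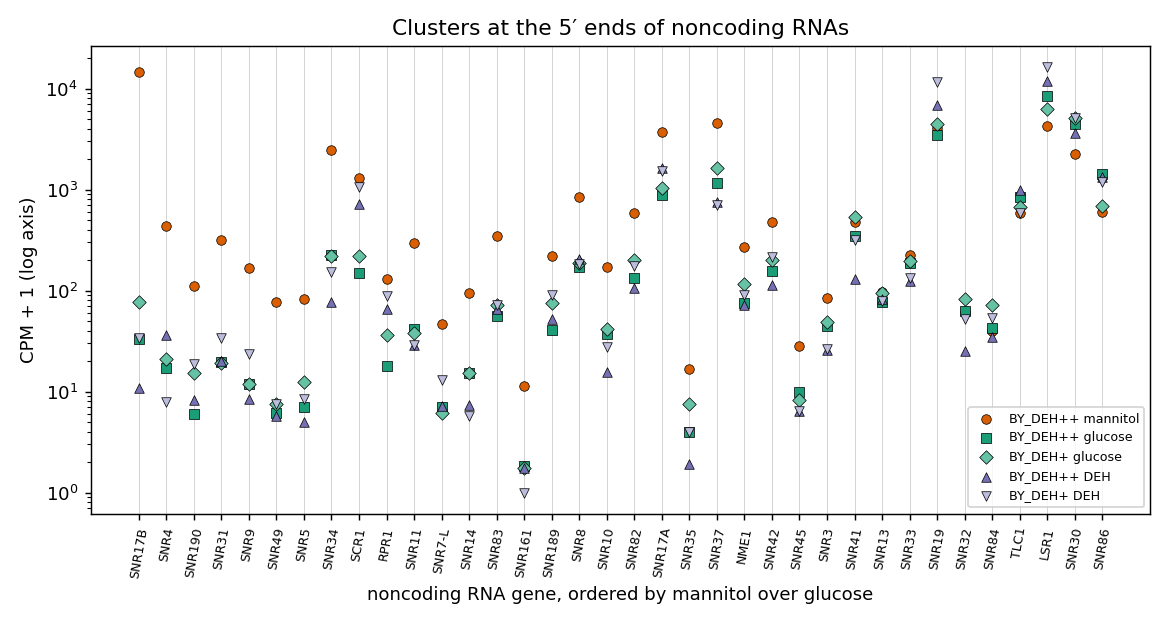
CPM + 1 (y axis, log) at clusters within 50 bases of the 5′ ends of 36 noncoding RNA genes in each of the 5 libraries, ordered by mannitol over glucose in BY_DEH++. Mannitol (circles) is the highest point for most of the RNAs on the left, by most at SNR17B, and the lowest at LSR1, SNR30 and SNR86 on the right.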

How the data were processed

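Total RNA from whole cells was cap-trapped with a DNAFORM kit and sequenced on an Illumina NextSeq500, per the labels' protocols. The submitters' processing notes name the tools BWA and HISAT2 and the build mm9, which is of the mouse. Clusters in the deposited table are named by the sequences of yeast R64, which was used here. How clusters were built, filtered and assigned to genes is not given in the sources used here. The deposited values are a signal in CPM per consensus cluster, scaled by the authors. The unit was recorded as signal, where the design assumed CPM, because lines repeat: 29960 lines held 27176 distinct clusters.

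Each cluster was used 1 time, for the gene of its first line; 2713 clusters were listed for several genes, 6821 for none, and 4.94% of those of a single matched gene lay on its other strand. Ratios are log2 of CPM + 1. The genes picked for naming were the 12 largest in each direction and the 12 highest outside ribosomal proteins. All measured members of the polyol, zinc and transporter lists were picked too. Every other list gave up to 3 members past 4-fold in each direction, and start sites the 4 largest moves each way. AHA1, ARG5,6, MRPL37, MRPL39 and SNZ3 were picked but are not given with values above. Other genes named are list members for contrast, chosen after their values were seen. The members and lists were chosen with earlier results of these data known. With 1 library a side there is no test and no p-value.

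Low values were whole multiples of 0.0956 CPM in mannitol and 0.0753 CPM in glucose, taken as 1 read. From these, 95% intervals of ratios (exact binomial, Clopper-Pearson) were computed. They cover the counting error of reads only and not variation between cultures. Each read was counted as independent, and no molecular identifiers are stated. Values under about 0.5 CPM were listed at 0. Coordinates are 1-based, after adding 1 base to each cluster start. Alternatives were other limits, pseudocounts, filters, scalings and cluster assignments. Python 3.11.15, pandas 2.3.3, numpy 2.4.6, scipy 1.17.1 and matplotlib 3.10.9 were used.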

Additional observations from a re-analysis of the deposited data

Results flagged for a closer look

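The clusters at the 5′ ends of noncoding RNAs, most of which belong to no gene sum, carried a signal above the glucose control. Their summed level was 44757.5 CPM in mannitol and 22891 CPM in BY_DEH++ in glucose, with 23029 CPM in BY_DEH+ in glucose and 29456 and 40232 CPM in DEH in BY_DEH++ and BY_DEH+. The snoRNAs alone summed to 33335 CPM in mannitol and to 8499.99 to 10732 CPM in the other 4 libraries, and SNR17B gave 14649.7 CPM of the mannitol sum. Short coding genes were higher in the same library, with a median log2 ratio of 1.21 in genes of up to 300 coding bases outside the ribosomal proteins. The part of RNA length or of library preparation in these values was not tested.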

How the results depend on the processing

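No paired analysis was possible because each group was 1 library. For the same reason no replicate could be left out. A 2-fold limit gave 427 genes higher and 1253 lower, and 18 zinc genes lower. Lower genes numbered 165 with a pseudocount of 10 CPM, 156 with median-of-ratios scaling, 188 with upper-quartile scaling and 180 with totals taken without ribosomal proteins. Higher genes numbered 77 without ribosomal protein genes and 53 without genes under 600 coding bases, which left 18 ribosomal protein and 1 respiratory gene higher. With the smaller of the folds against both glucose libraries 7 zinc and 4 transporter genes were lower. Genes with moved start sites numbered 160 at 20 points, and 15 of 83 when clusters were assigned by strand and window, an alternative chosen after seeing the data, as was leaving out the 13 genes that rest on noncoding RNA clusters (175 higher and 290 lower). With windows 209 genes were higher and 372 lower; 150 of the 178 higher genes (84.3%) and 239 of the 290 lower ones (82.4%) were also called there.

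Of 1723 values of 128 named genes under the alternatives, 1631 stayed on the same side, 81 were weaker, 2 stronger and 9 reversed. DSF1 turned to 0.286 with median-of-ratios scaling, 0.132 with upper-quartile scaling and 0.175 without ribosomal protein totals, and HXT9 to 0.007. GLG2 turned to -0.33 and DUR3 to -2.34 without clusters of several genes, and with windows GLG2 stood at -0.33, GLG1 at -1.51 and DUR3 at -1.70; their clusters are shared with ribosomal protein genes. The cause of the other changes was not tested.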

Other observations

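Clusters with no gene in the deposited table were mostly lower in mannitol. Of 675 such clusters with 10 CPM or more in either library, 80 were higher and 250 lower at 4-fold, with a median log2 ratio of -1.41. Among the 4483 genes 178 were higher and 290 lower, with a median of -0.48. These values are of unlike units, single clusters against sums of a gene's clusters. Chromosome medians over genes ran from -0.61 to -0.35.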
